A study of Homo sapiens with 6 samples.

Results

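The epithelial keratins described here are 8 genes, KRT7, KRT8, KRT10, KRT18, KRT19, KRT20, KRT23 and KRT80, chosen by name from a table of 58938 entries that holds 55 protein-coding keratin genes. All 8 were found in the table, and 7 of them averaged at least 1 FPKM (fragments per kilobase of gene, scaled for each library) and were tested. The samples were cells of HCT116, a long-established line from a human colorectal carcinoma, of which 3 libraries came from cells transfected with a plasmid that overexpresses MST3, a protein kinase encoded by STK24, and 3 from cells transfected with a vector and labelled WT. All cells were grown in the same medium, transfected by lipofection at 60% density, given new medium after 6 hours and lysed after 30 hours. The transfections were transient, the labels do not give the share of cells that took up plasmid or the promoter on it, and they do not say whether replicates were separate cultures, so a p-value here covers the spread of these libraries alone and that spread may be technical.

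Keratins are the intermediate filament proteins of epithelial cells. A type I and a type II keratin pair as heterodimers that assemble into filaments, which attach to desmosomes and give the epithelial sheet its mechanical strength. Simple epithelia such as the lining of the colon are built mainly on KRT8 with KRT18, together with KRT19, and KRT20 marks the differentiated cells of the gut lining. Pathologists use KRT7 and KRT20 to tell the origin of carcinomas, and KRT10 is the type I keratin of the upper layers of the epidermis, where its partner is KRT1. Of the members, 5 are type I (KRT10, KRT18, KRT19, KRT20 and KRT23) and 3 are type II (KRT7, KRT8 and KRT80).

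HCT116 cells in these libraries carried a simple-epithelial keratin mRNA profile in which KRT19, KRT8 and KRT18 made up nearly all of the keratin signal, while KRT20 was close to the limit of detection. No member passed the test between MST3 and vector libraries. KRT10 had the largest difference on the log2 scale, with a mean of 12.6 ± 5.61 FPKM in MST3 libraries and 8.72 ± 0.35 FPKM in vector libraries (SD, n = 3 each), and its MST3 libraries lay on both sides of the vector libraries. The ratio of KRT18 to its partner KRT8, singled out after its values were seen, lay lower in each of the 3 MST3 libraries than in every vector library. It was 1 of 2 among 21 member ratios whose groups did not overlap. The groups did not overlap for the levels of 11.9% of all tested genes, and the share over ratios of tested genes was not computed. In bulk RNA such as this, fewer cells expressing a gene and less RNA per cell cannot be told apart.

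The recovered reads per library, obtained from the steps in which FPKM values rise, came to 15289213 to 17209736 in MST3 libraries and 17296201 to 17708029 in vector libraries. STK24, the gene the plasmid carries, had 63.7, 72.2 and 76 FPKM in the MST3 libraries and 17.1, 17.4 and 17.4 FPKM in the vector libraries, and no library went against its label. MST3 replicate 1 stood apart, with the fewest reads and with reads on 27442 genes, against 25099 to 25501 genes in the other 5 libraries. Of 11 markers of colorectal epithelium, 7 averaged at least 1 FPKM, with a summed level of 304 to 336 FPKM in MST3 libraries and 295 to 306 FPKM in vector libraries. EPCAM averaged 87.8 FPKM and CDX2 3.33 FPKM, whereas CDH17 averaged 0.276 FPKM, VIL1 and LGALS4 were near 0 and CDX1 had no reads. Markers of leukocytes summed to 0.459 to 0.585 FPKM in MST3 libraries and 0.155 to 0.825 FPKM in vector libraries, and those of endothelium to 0.182 to 0.27 FPKM in MST3 libraries and 0.132 to 0.233 FPKM in vector libraries. COL1A1 alone of 7 mesenchymal markers passed 1 FPKM.

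The promoter windows below are those of the 3 members, out of 8, that had a window in the set of RefSeq promoters used here (GRCh38.p14). They are KRT8, among the most abundant, KRT10, with the largest spread, and KRT20, the lowest. These windows are shown because no others of the members were available, and they were not chosen by level. Each runs from 250 bases before to 50 bases after a transcript start. KRT7, KRT18, KRT19, KRT23 and KRT80 are named only. Capitals mark a TATA box in the KRT10 window and the core letters read by TEAD factors in the KRT8 window, both spelled out after the sequences. All windows are read on the minus strand.
KRT8, chr12:52926420-52926719: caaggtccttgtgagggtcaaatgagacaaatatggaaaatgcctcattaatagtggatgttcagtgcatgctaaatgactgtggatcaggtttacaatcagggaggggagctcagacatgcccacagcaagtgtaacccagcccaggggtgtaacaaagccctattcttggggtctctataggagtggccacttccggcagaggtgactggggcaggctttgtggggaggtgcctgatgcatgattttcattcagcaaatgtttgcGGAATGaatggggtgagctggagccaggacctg
KRT10, chr17:40822565-40822864: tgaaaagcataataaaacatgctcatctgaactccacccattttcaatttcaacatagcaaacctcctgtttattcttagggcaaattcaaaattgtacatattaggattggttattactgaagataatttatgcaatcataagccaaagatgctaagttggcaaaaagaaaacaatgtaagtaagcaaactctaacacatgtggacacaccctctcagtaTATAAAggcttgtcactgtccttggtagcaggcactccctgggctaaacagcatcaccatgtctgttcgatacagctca
KRT20, chr17:40885193-40885492: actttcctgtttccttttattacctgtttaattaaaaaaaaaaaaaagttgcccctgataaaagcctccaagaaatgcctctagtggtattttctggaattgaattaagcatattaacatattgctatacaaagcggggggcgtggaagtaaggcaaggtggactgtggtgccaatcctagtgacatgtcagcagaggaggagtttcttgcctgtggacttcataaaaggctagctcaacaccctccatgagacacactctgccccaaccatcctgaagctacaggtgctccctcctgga

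The KRT10 window held TATAAA starting 29 bases before the start (position -29), a motif found in 11.5% of the 35114 promoter windows when both strands are read. The KRT8 window held GGAATG at position 18 after the start, and 14% of all windows hold those letters. GGGCGG, the GC box (45% of windows), and TGANTCA, the AP-1 site (7.71%), were in none of the 3 windows. GC content was 50.7% for KRT8, 37.7% for KRT10 and 44% for KRT20, with a median of 58.7% over all windows. The KRT8 window belongs to the start of 1 of 17 annotated KRT8 transcripts, and the libraries do not tell which starts were used. These matches are descriptions of the letters and carry no measurement of binding.

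KRT19 (ENSG00000171345; chromosome 17, 41523617 to 41528308, minus strand, GRCh38) was the most abundant member and ranked 29 among all entries by mean FPKM. It is a small type I keratin that lacks most of the tail found in other keratins and pairs with KRT8 or KRT7. The MST3 libraries had 861, 877 and 1190 FPKM and the vector libraries 947, 918 and 951 FPKM. Replicates 1 and 2 of MST3 lay below every vector library and replicate 3 above them all, so the groups overlapped. The difference on the log2(FPKM + 1) scale was 0.04 (SE 0.14, 95% interval -0.29 to 0.37; adjusted p = 0.937 by limma over all tested genes). Without MST3 replicate 3 it was -0.11, so its sign rests on that library.

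KRT8 (ENSG00000170421; chromosome 12, 52897187 to 52949954, minus strand) is the type II keratin of simple epithelia. It had 352, 342 and 403 FPKM in MST3 libraries and 340, 343 and 354 FPKM in vector libraries. MST3 replicate 3 was the highest of the 6, and the other MST3 libraries lay within the range of the vector libraries. The log2 difference was 0.08 (SE 0.1, 95% interval -0.15 to 0.31; adjusted p = 0.808 by limma). KRT18 (ENSG00000111057; chromosome 12, 52948871 to 52952901, plus strand), its type I partner, had 194, 219 and 234 FPKM in MST3 libraries and 230, 226 and 234 FPKM in vector libraries. MST3 replicates 1 and 2 lay below every vector library, and replicate 3 was the highest of the 6, just above vector replicate 3. The log2 difference of KRT18 was -0.09 (SE 0.1, 95% interval -0.33 to 0.14; adjusted p = 0.775 by limma). Without MST3 replicate 1, the lowest library, it was -0.02, and without MST3 replicate 3 it was -0.15.

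KRT10 (ENSG00000186395; chromosome 17, 40818117 to 40822595, minus strand) had 17.9, 6.71 and 13.2 FPKM in MST3 libraries and 9.13, 8.52 and 8.53 FPKM in vector libraries. These values rest on 612, 250 and 484 reads in MST3 libraries and 344, 313 and 319 reads in vector libraries. MST3 replicate 1 was the highest of all and MST3 replicate 2 the lowest of all, with the vector libraries close together between them. The log2 difference was 0.39 (SE 0.29, 95% interval -0.29 to 1.07; adjusted p = 0.726 by limma), the widest interval among the members. Leaving out MST3 replicate 1 gave 0.11, and leaving out MST3 replicate 2 gave 0.75. In the fit without replicate 2 the unadjusted p = 0.00144 by limma and the adjusted p = 0.204, where 19.5% of all tested genes had an unadjusted p under 0.05.

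The coefficient of variation of KRT10 was 44.6% among MST3 libraries and 4.02% among vector libraries. Only 5.88% of tested genes varied as much or more among MST3 libraries, while 78% did among vector libraries. TMEM99, which overlaps KRT10 over 3490 bases on the opposite strand, had 7.54, 8.21 and 7.61 FPKM in MST3 libraries and 8.07, 8.2 and 8.37 FPKM in vector libraries. Its values spanned a narrow range in which KRT10's did not. The strand setting of the counting is not given in the sources used here, so reads of the shared bases cannot be assigned to either gene with certainty. KRT1, the epidermal partner of KRT10, was listed at 0 in all 3 MST3 libraries and in vector replicates 1 and 2, with 0.023 FPKM in vector replicate 3. MST3 replicate 1, with the highest KRT10, is also the library with reads on the most genes, and the part of that in the KRT10 value was not tested.

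**Figure D1:**
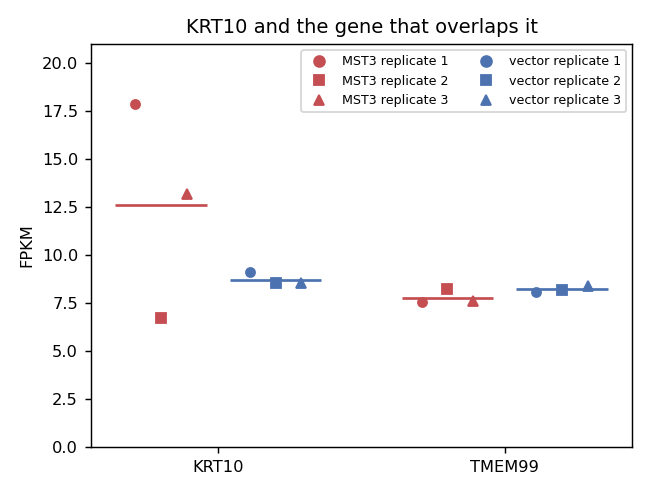
FPKM of KRT10 and of TMEM99, the gene that overlaps it on the opposite strand, with 1 point per library (MST3 red, vector blue, shape by replicate number) and lines at the group means. KRT10 spread from 6.71 to 17.9 FPKM among MST3 libraries and from 8.52 to 9.13 FPKM among vector libraries, while TMEM99 stayed between 7.54 and 8.37 FPKM in all 6.

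A group of 3 further members stood at about 3 FPKM. KRT7 (ENSG00000135480; chromosome 12, 52232520 to 52252186, plus strand), a type II keratin of ductal epithelia, had 3, 2.74 and 4.13 FPKM in MST3 libraries and 2.57, 2.92 and 3.22 FPKM in vector libraries. MST3 replicate 3 was the highest and vector replicate 1 the lowest, and the other libraries were mixed. The log2 difference was 0.13 (95% interval -0.19 to 0.45; adjusted p = 0.78 by limma). KRT23 (ENSG00000108244; chromosome 17, 40922696 to 40937634, minus strand), a type I keratin, had 2.64, 3.31 and 3.72 FPKM in MST3 libraries and 2.61, 3.16 and 2.98 FPKM in vector libraries. Its 2 highest values were MST3 libraries, but MST3 replicate 1 lay near the lowest vector library, and the log2 difference was 0.1 (95% interval -0.18 to 0.38; adjusted p = 0.796 by limma).

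KRT80 (ENSG00000167767; chromosome 12, 52168996 to 52192000, minus strand), a type II keratin, had 2.28, 2.32 and 2.75 FPKM in MST3 libraries and 2.86, 2.39 and 3.07 FPKM in vector libraries. MST3 replicates 1 and 2 were the lowest of the 6 libraries, and replicate 3 lay among the vector libraries. The log2 difference was -0.13 (95% interval -0.38 to 0.12; adjusted p = 0.739 by limma), and single libraries left out moved it between -0.20 (without vector replicate 2) and -0.07 (without vector replicate 3). These 3 members rest on 122 to 290 reads per library, so their spread includes more counting error than that of KRT8 or KRT19.

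KRT20 (ENSG00000171431; chromosome 17, 40875941 to 40885227, minus strand), the keratin of differentiated gut epithelium, had 9, 6 and 12 reads in MST3 libraries and 8, 10 and 12 reads in vector libraries. This came to 0.306, 0.187 and 0.379 FPKM in MST3 libraries and 0.247, 0.316 and 0.372 FPKM in vector libraries. The groups overlapped, and no difference was detectable at this depth. KRT20 was below the limit of 1 FPKM for testing. With that limit at 0.1 FPKM its log2 difference was -0.02 (95% interval -0.27 to 0.22; adjusted p = 0.962 by limma), a scale on which so low a level can show little change.

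**Figure D2:**
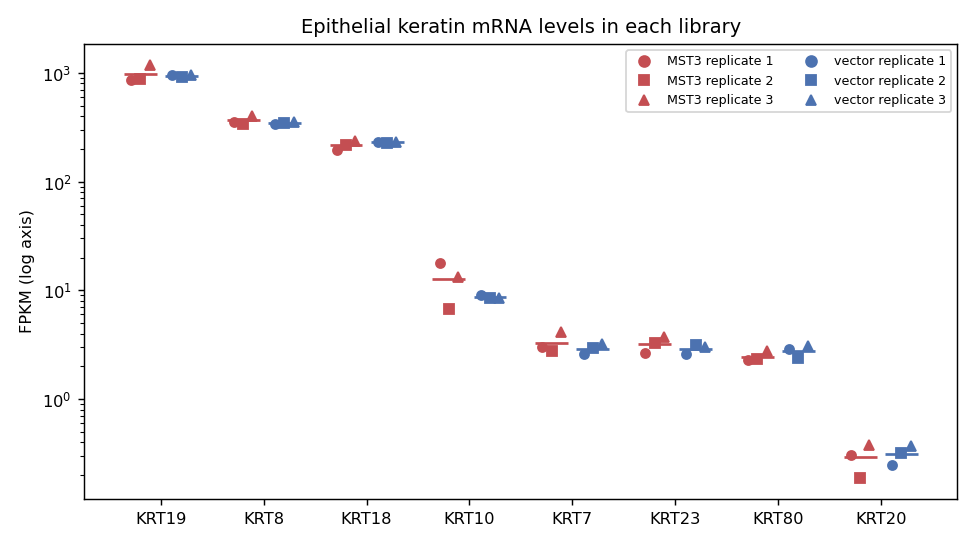
FPKM of the 8 keratins on a log axis, ordered by mean level, with 1 point per library (MST3 red and left, vector blue and right, shape by replicate number) and lines at the group means. KRT19 reached 861 to 1190 FPKM and KRT20 at most 0.379 FPKM, and MST3 and vector libraries overlapped for every member.

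The order of levels was the same whether the authors' gene length or a single transcript was used. By mean FPKM over the 6 libraries it ran KRT19 (957), KRT8 (356), KRT18 (223), KRT10 (10.7), KRT7 (3.1), KRT23 (3.07), KRT80 (2.61) and KRT20 (0.301). By the authors' gene length the ranges of KRT7 and KRT23 overlapped, as did those of KRT23 and KRT80, and those of the other neighbours did not. By the single transcript these 2 pairs did not overlap, with 6.00 to 9.65 for KRT7, 3.81 to 5.43 for KRT23 and 2.57 to 3.46 for KRT80. On that scale KRT10, at 6.78 to 18.1, overlapped KRT7. The separation of these neighbours therefore depends on the length used. How the deposited gene lengths were derived was not checked. For KRT8 the deposited length is 6881 bp, against 2126 bp for its principal protein-coding transcript in GENCODE 29. Per length of that transcript KRT8 stood at 1184 ± 105 in MST3 libraries and 1118 ± 24.2 in vector libraries, in FPKM rescaled (SD, n = 3 each). On the same scale KRT19 stood at 1640 ± 312 in MST3 libraries and 1577 ± 30 in vector libraries, and KRT18 at 445 ± 41.6 in MST3 libraries and 474 ± 8.32 in vector libraries.

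The excess of type I over type II keratin mRNA therefore depends on the length used. Summed over the members, type I FPKM was 3.24 ± 0.259 times type II FPKM in MST3 libraries and 3.36 ± 0.0726 times in vector libraries (SD, n = 3 each). With transcript lengths the ratio was 1.75 ± 0.138 in MST3 libraries and 1.83 ± 0.0391 in vector libraries. KRT19 alone held 61.6 ± 2.38% of the members' FPKM in MST3 libraries and 61.3 ± 0.384% in vector libraries. KRT19, KRT8 and KRT18 together held 98.2 to 98.9% of it in every library. The 8 members took 0.535, 0.52 and 0.636% of the recovered reads in MST3 libraries and 0.53, 0.517 and 0.551% in vector libraries, with MST3 replicate 3 the highest.

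KRT18 and KRT8 are partners in the filaments of simple epithelia, and a single scaling factor per library cancels in a ratio of their FPKM. Quantile normalization and removal of length and GC trends are not such factors, and the ratio was not recomputed under them. The ratio of KRT18 to KRT8 was 0.551, 0.641 and 0.581 in MST3 libraries and 0.678, 0.659 and 0.661 in vector libraries. All 3 MST3 libraries lay below the vector libraries, and the closest values of the groups were 0.641 in MST3 replicate 2 and 0.659 in vector replicate 2. Of the 21 ratios among the 7 tested members, 2 did not overlap between the groups, this one and KRT80 to KRT8. Those ratios share members and were looked at after their values were known, and the 11.9% of single tested genes that did not overlap came to 5.19% with MST3 libraries higher and 6.7% with MST3 libraries lower. The ratio of KRT19 to KRT8 was 2.44, 2.56 and 2.95 in MST3 libraries and 2.79, 2.68 and 2.69 in vector libraries, so these groups overlapped. KRT8 and KRT18 overlap over 1084 bases on opposite strands, where the first exons of long KRT8 transcripts lie, and reads of those bases cannot be assigned with certainty.

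**Figure D3:**
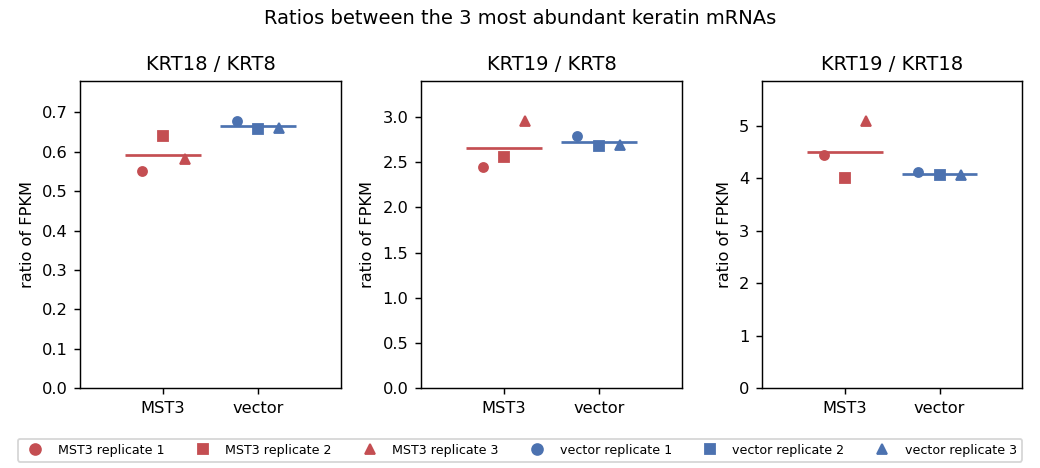
Ratios of FPKM among the 3 most abundant keratins, KRT18 to KRT8, KRT19 to KRT8 and KRT19 to KRT18, with 1 point per library and lines at the group means, on axes that start at 0. KRT18 to KRT8 lay between 0.551 and 0.641 in MST3 libraries and between 0.659 and 0.678 in vector libraries, and the groups overlapped in the other panels.

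Over all genes limma tested 13036 and called 1 (STK24), a share of 0.00767%, and 0 of the 7 tested keratins. At an unadjusted p under 0.05 limma on FPKM gave 701 genes (5.38%) and limma voom on the recovered reads 871 genes (6.68%), with 0 keratins by either. The groups did not overlap for 11.9% of all tested genes and for 0 of the 7 keratins. The keratins had 5 positive and 2 negative differences with a median of 0.08, where all tested genes had 46.6% positive and a median of -0.01. The split of the keratins was 4 and 3 with sample weights or without trends in length and GC, and 3 and 4 without MST3 replicate 3. An exact permutation test of each member's 6 values gave p from 0.2 (KRT80) to 1 (KRT19), and 3 libraries against 3 allow none below 0.1. The 95% intervals lay within 0.45 of 0 on the log2 scale for every tested member but KRT10.

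**Figure D4:**
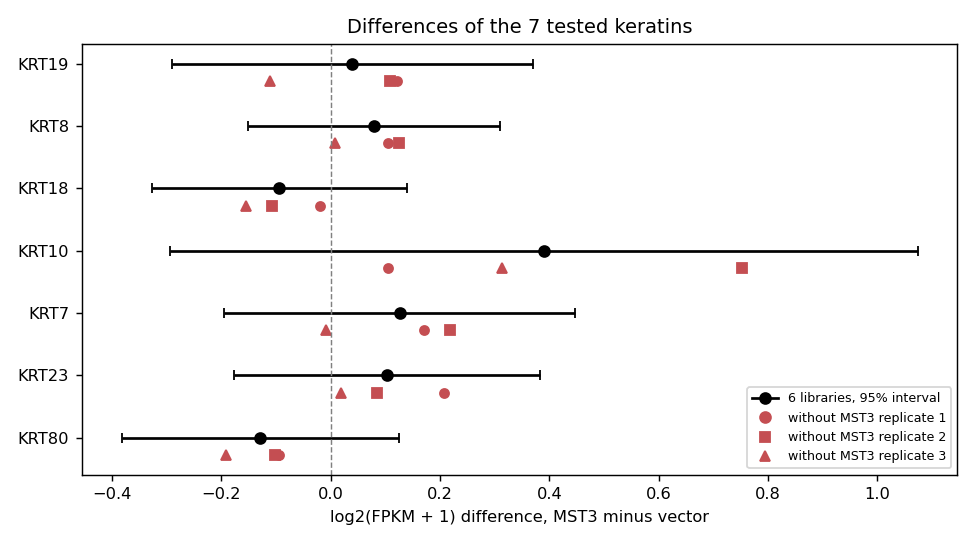
Differences of the 7 tested keratins on the log2(FPKM + 1) scale, MST3 minus vector, with 95% intervals from limma in black and the values without each MST3 library in red below them. Every interval includes 0, and KRT10 moved between 0.11 and 0.75 with the MST3 library left out.

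The keratins varied more among MST3 than among vector libraries. The SD was larger among MST3 libraries for 6 of the 7 tested members, the exception being KRT80, and for 77.2% of all tested genes. KRT19 had a coefficient of variation of 19% among MST3 libraries and 1.9% among vector libraries. That of KRT18 was 9.34% among MST3 libraries and 1.76% among vector libraries. Only KRT10, KRT7, KRT19 and KRT23 exceeded the median of 13.6% that all tested genes had among MST3 libraries. MST3 replicate 3 was the highest library for 5 of the 7 tested members (KRT7, KRT8, KRT18, KRT19 and KRT23), where it was the highest for 28.4% of all tested genes. Without it the differences of KRT8, KRT7 and KRT23 came to 0.01, -0.01 and 0.02 on the log2 scale. Leaving out another MST3 library raised those of KRT8 and KRT7, which were 0.13 and 0.22 without MST3 replicate 2. The difference of KRT23 was 0.21 without MST3 replicate 1 (unadjusted p = 0.0989 and adjusted p = 0.916 by limma). Without MST3 replicate 2 it was 0.08, below the 0.1 of all 6 libraries.

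Patterns across the 6 libraries were compared by the root mean square difference of centred log2 values, with libraries as the shared points and no test. The genes nearest to KRT8 were PHB, CDK16 and PCOLCE2 (0.0161 to 0.023), and KRT18 came only at rank 2816 of 13035. Nearest to KRT18 were TUBGCP2, AGAP1 and ZBTB2 (0.0119 to 0.0169), and nearest to KRT19 were SLC1A5, GNB2 and IMPDH1 (0.0171 to 0.0231). KRT7 lay nearest to NECAB3, CDAN1 and POLL, KRT23 to PPCS, TOM1 and TOR1A, and KRT80 to TMEM201, ADAT1 and MYT1. The measure is not scaled for the spread of a gene, which was large for KRT10. By it KRT10 had no close match, its nearest genes TIMM10, RABAC1 and AC016876.1 lying 0.104 to 0.119 away. Among members, KRT80 and KRT18 were the closest (0.0809), and KRT10 was the farthest from each of the others.

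The rest of the keratin family was low. Of the 47 other keratin genes, 3 averaged at least 1 FPKM and 11 had no read in any library. KRT15, a keratin of basal cells, had 4.9 ± 0.835 FPKM in MST3 libraries and 4.92 ± 0.211 in vector libraries (SD, n = 3 each; adjusted p = 0.977 by limma), above KRT7, KRT23 and KRT80. KRT32, a hair keratin, had 1.71 ± 0.237 FPKM in MST3 libraries and 1.88 ± 0.467 in vector libraries, and KRT13, of mucosal squamous epithelium, had 1.14 ± 0.34 FPKM in MST3 libraries and 1.08 ± 0.088 in vector libraries. None of the 3 passed the test. The squamous markers KRT5, KRT14, TP63, DSG3 and KRT1 summed to 0.171 to 0.29 FPKM in MST3 libraries and 0.129 to 0.419 FPKM in vector libraries. The members held 99.2 to 99.4% of all keratin FPKM in each library.

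**Figure D5:**
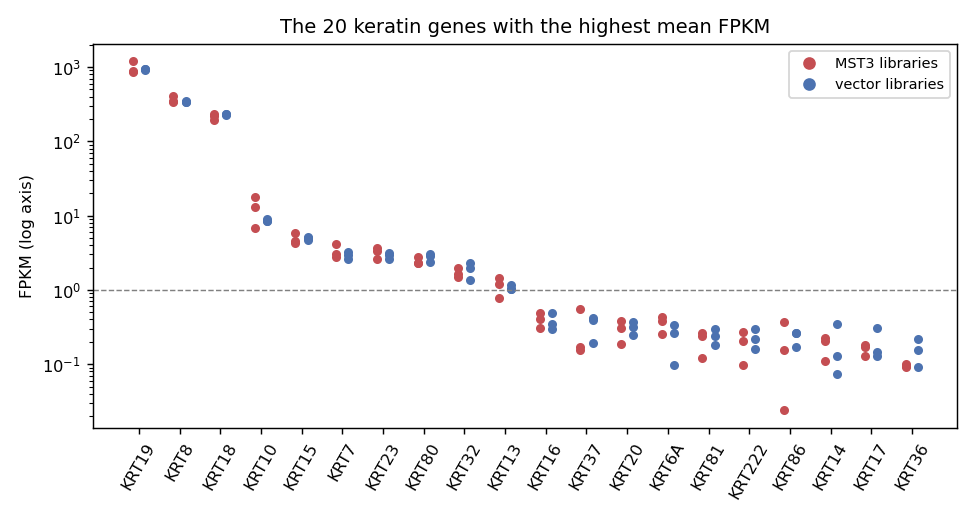
FPKM of the 20 keratin genes with the highest mean, on a log axis, with MST3 libraries in red and vector libraries in blue (values of 0 are not drawn). The dashed line is the limit of 1 FPKM for testing, which 10 keratin genes passed, and KRT19, KRT8 and KRT18 stood far above the rest.

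KRT8 and KRT18 have many pseudogenes, sequences in the genome that resemble them and can share reads with them. The table holds 50 pseudogenes of any kind for KRT8, of which 23 had reads, and 67 for KRT18, of which 26 had reads. Reads on KRT8 pseudogenes were 0.37 to 0.45% of those on KRT8 in MST3 libraries and 0.38 to 0.455% in vector libraries. Reads on KRT18 pseudogenes were 0.294 to 0.472% in MST3 libraries and 0.209 to 0.292% in vector libraries, from 38 to 47 reads in MST3 libraries and 26 to 38 reads in vector libraries. KRT8P3, the highest of them, had 2.99 ± 0.867 FPKM in MST3 libraries and 3.18 ± 0.806 in vector libraries (SD, n = 3 each), and KRT8P33 had 1.49 ± 0.505 in MST3 libraries and 1.49 ± 0.109 in vector libraries. Neither passed the test, and how the authors' counting treated reads that fit several places is not given in the sources used here.

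Of 27 tested keratin partners (desmosomal plaque proteins, cytolinkers, adaptors and hemidesmosomal integrins), limma called 0, with 14 positive and 13 negative differences and a median of 0.01, beside -0.01 over all tested genes. At an unadjusted p under 0.05 there was 1, ITGA6, a hemidesmosomal integrin subunit, with 31.1, 40.2 and 32.8 FPKM in MST3 libraries and 41.3, 45.8 and 41.4 FPKM in vector libraries (adjusted p = 0.719 by limma). Its MST3 values lay below every vector value, as for 3 of the 27 partners (with PERP and PKP2, of which PKP2 is named after its values were seen) and 6.7% of all tested genes. PERP, a desmosomal membrane protein, had 69.1, 77.6 and 70.6 FPKM in MST3 libraries and 83.1, 87.1 and 78.1 FPKM in vector libraries, which did not overlap either. DSG2, a desmosomal cadherin, averaged 60.7 ± 9.35 FPKM in MST3 libraries and 71.1 ± 4.94 in vector libraries, and EVPL, a plakin, 13.3 ± 2.72 in MST3 libraries and 10.8 ± 0.824 in vector libraries (SD, n = 3 each). SFN, a 14-3-3 protein, averaged 202 FPKM in MST3 libraries and 172 FPKM in vector libraries. YWHAZ and YWHAE averaged 209 and 166 FPKM in MST3 libraries, against 234 and 180 FPKM in vector libraries. The groups of SFN, YWHAZ and YWHAE overlapped.

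Of 27 tested keratin regulators, limma called 0, with 8 positive and 19 negative differences and a median of -0.07. Among these regulators 29.6% of differences were positive, beside 46.6% over all tested genes, whose median was -0.01. At an unadjusted p under 0.05 there was 1, MAPK8, a stress kinase, with 5.98, 6.66 and 5.47 FPKM in MST3 libraries and 7.01, 7.67 and 6.9 FPKM in vector libraries (adjusted p = 0.719 by limma). TFAP2C, a transcription factor, had 4.88, 4.98 and 5.49 FPKM in MST3 libraries and 5.85, 5.75 and 5.82 FPKM in vector libraries, and ETS2 13.8, 13.6 and 14.7 FPKM in MST3 libraries and 15.3, 16.2 and 15.5 FPKM in vector libraries. The groups of these 3 genes did not overlap, with MST3 libraries lower, and 1 other regulator, HNF4A (named after its values were seen), did not overlap with MST3 libraries higher, where all tested genes had 6.7% lower and 5.19% higher. The splicing regulator ESRP1 averaged 45.9 FPKM in MST3 libraries and 52.8 FPKM in vector libraries. FOSL1, an AP-1 subunit, averaged 72.5 FPKM in MST3 libraries and 79.6 FPKM in vector libraries. The groups of ESRP1 and FOSL1 overlapped.

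Of 16 genes for other intermediate filaments, 7 were tested and limma called 0, with 0 at an unadjusted p under 0.05. LMNB2, a nuclear lamin, had 99.7, 78.4 and 109 FPKM in MST3 libraries and 76.3, 67.5 and 83.9 FPKM in vector libraries, with MST3 replicate 2 inside the vector range. LMNB1 averaged 37.5 ± 3.4 FPKM in MST3 libraries and 41.5 ± 2.31 in vector libraries, LMNA 130 ± 20.1 in MST3 libraries and 122 ± 4.77 in vector libraries, and NES 10.4 ± 1.09 in MST3 libraries and 9.04 ± 0.655 in vector libraries (SD, n = 3 each).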

How the data were processed

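RNA of 6 HCT116 libraries was measured by RNA sequencing. The authors deposited FPKM values per gene with gene positions and lengths; HISAT2 is named per the submitters' processing notes, while its version, counter, strand setting and build were not given in the sources used here. All 58735 entries with Ensembl identifiers had the position of GENCODE 29 on GRCh38. Multiplied by gene length, 100% of the FPKM values were multiples of 1 smallest step per library (tolerance 0.01), and these multiples were taken as reads. Members and lists were chosen with earlier results of these data known.

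The main test was limma 3.58.1 (R 4.3.3; eBayes, intensity trend) on log2(FPKM + 1) for 13036 genes that averaged 1 FPKM or more, with two-sided p-values adjusted by Benjamini-Hochberg over all of them (threshold 0.05). A fold on this scale understates the change of low genes. The fit was tested on simulated data with the same spread set for both groups, unlike the larger spread seen among MST3 libraries. That test therefore does not cover unequal spread. Genes named beside the members were, per list, up to 4 with the smallest p and up to 3 with the highest level, genes overlapping a member and, per member, the 3 nearest in pattern; of the overlapping genes, those under 1 FPKM were not described, and 1 gene that the rule takes is not reported here. Principal transcripts (APPRIS tags, longest first) and GC content came from GENCODE 29. Alternatives covered pseudocount, filter, scaling, variance model, replicate block, limma voom and leaving out each library. Removal of length and GC trends (splines with 3 degrees of freedom) and transcript-length levels were chosen after seeing the data. Figures were drawn with matplotlib 3.10.9 in Python 3.11.15, from tables made by pandas 2.3.3 and numpy 2.4.6.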

Additional observations from a re-analysis of the deposited data

How the results depend on the processing

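In all 20 alternatives limma called 1 gene, STK24 each time, and 0 keratins. Of 137 values of tested keratins under these alternatives, 133 kept their direction and stayed above the threshold and 4 reversed. KRT19 was -0.0074 with sample weights and -0.11 once trends with length and GC were taken out, and leaving out single libraries moved it between -0.11 (without MST3 replicate 3) and 0.12. KRT7 ranged from -0.0094 (without MST3 replicate 3) to 0.22 when single libraries were left out. The cause was not tested. KRT10 ranged from 0.11 to 0.75 over all alternatives (unadjusted p by limma from 0.00144 to 0.678), and KRT80 had an unadjusted p = 0.0439 by limma without those trends (adjusted p = 0.663).

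No scaling moved the median of all genes by over 0.1. Same-numbered libraries deviated together with correlations of 0.0158, 0.226 and 0.035, and libraries of different numbers with -0.148 to 0.122. These values do not settle whether the libraries are paired. With the replicate block 0 keratins and 1 gene were called, with 1338 genes at an unadjusted p under 0.05 in place of 701. That count was 2555 without MST3 replicate 2, 303 without vector replicate 2, and 448, 883, 445 and 520 without the others. A count test by quasi-likelihood on the recovered reads was not run. Depth limits KRT20 most, at 6 to 12 reads per library.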
